A study of Mus musculus with 27 samples.

Results

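The genes described here are 10 mouse genes of fatty acid uptake and oxidation: Cd36, Fabp3, Cpt1a, Cpt1b, Cpt2, Acadm, Acadl, Acadvl, Hadha and Ppara. They were chosen by name, and all 10 were found among 24025 genes of the bulk table and among 19010 genes of the single-cell table. The study deleted Hand2os1 (also called Hand2as or Uph), a long non-coding RNA gene beside the heart transcription factor gene Hand2, in C57BL/6 mice. Allele F is a full-length and allele D a 3' distal deletion, and the control samples carry it on a single chromosome (F/+, D/+) or not at all (+/+). The bulk libraries were poly(A) RNA of E11.5 hearts (3 F/+, 3 F/F), of E16.5 ventricles (3 F/+, 3 F/F) and of cardiomyocytes at 8 weeks (5 +/+, 2 D/+, 6 D/D), where E is the embryonic day. A pair of single-cell libraries held living, trypsinised cells of E11.5 hearts, with 6 hearts pooled for +/+ and 6 for F/F. No +/+ sample accompanies the embryonic bulk libraries. The labels do not say that bulk libraries came from separate animals, so p-values measure the spread between these samples only.

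Heart muscle burns fatty acids in its mitochondria, and the switch from glucose and lactate towards fatty acids around birth is a textbook feature of its maturation. Cd36 carries fatty acids across the cell membrane and Fabp3 binds them in the cytosol of muscle. Cpt1a (the liver form) and Cpt1b (the muscle form) load them onto carnitine at the outer mitochondrial membrane, and Cpt2 unloads them inside. Acadvl, Acadl and Acadm, the very long, long and medium chain acyl-CoA dehydrogenases, catalyse the first step of beta-oxidation, and Hadha is the alpha subunit of the trifunctional protein that catalyses later steps. Ppara is the nuclear receptor that binds fatty acids and activates genes of this pathway. It binds DNA with an RXR partner at repeats of the hexamer AGGTCA.

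Because the members are textbook targets of nuclear receptors and most of them moved together across stages, their promoters were searched for that hexamer. RefSeq windows of GRCm38.p6 (250 bases before to 50 after each gene's start) were held for 9 of the 10 members; Cpt1b was not matched. AGGTCA, on either strand, was in 4 of the 9 windows and in 16.3% of all 32851 windows. The 9-letter element TCAAGGTCA, which contains it, was in 0 of 9 member windows and 0.423% of all, and a direct repeat of the hexamer with a single-base spacer in 0 of 9 and 0.0396%. A match describes these letters only. The 4 windows are printed 5′ to 3′ on the gene's strand, with the match (AGGTCA or its reverse complement TGACCT) in capitals.
Acadm, chr3:153944594-153944893, minus strand: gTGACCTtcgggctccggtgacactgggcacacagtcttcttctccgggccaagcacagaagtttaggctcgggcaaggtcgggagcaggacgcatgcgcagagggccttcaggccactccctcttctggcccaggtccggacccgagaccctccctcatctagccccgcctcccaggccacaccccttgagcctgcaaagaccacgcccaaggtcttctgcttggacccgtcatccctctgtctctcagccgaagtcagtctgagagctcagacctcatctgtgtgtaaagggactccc
Cd36, chr5:17835847-17836146, minus strand: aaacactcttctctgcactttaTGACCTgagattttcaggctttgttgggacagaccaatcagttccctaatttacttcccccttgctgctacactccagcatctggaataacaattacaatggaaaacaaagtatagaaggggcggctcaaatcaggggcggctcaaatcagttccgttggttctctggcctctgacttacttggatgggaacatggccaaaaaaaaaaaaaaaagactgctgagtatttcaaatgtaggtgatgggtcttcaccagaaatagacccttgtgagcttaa
Acadvl, chr11:70015379-70015678, minus strand: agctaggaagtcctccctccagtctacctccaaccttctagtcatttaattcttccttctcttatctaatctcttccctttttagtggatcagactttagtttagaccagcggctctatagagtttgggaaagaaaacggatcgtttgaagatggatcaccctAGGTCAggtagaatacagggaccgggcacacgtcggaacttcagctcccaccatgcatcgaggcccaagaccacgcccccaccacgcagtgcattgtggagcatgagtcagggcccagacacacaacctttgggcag
Cpt1a, chr19:3323051-3323350, plus strand: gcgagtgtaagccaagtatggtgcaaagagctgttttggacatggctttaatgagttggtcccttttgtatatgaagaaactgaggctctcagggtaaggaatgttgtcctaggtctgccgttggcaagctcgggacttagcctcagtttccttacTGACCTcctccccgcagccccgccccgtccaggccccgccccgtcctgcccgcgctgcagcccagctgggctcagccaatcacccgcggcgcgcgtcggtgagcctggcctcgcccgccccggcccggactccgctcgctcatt
The match began 249 bases before the start in Acadm, 228 in Cd36, 87 in Acadvl and 94 in Cpt1a. These 4 genes did not share a time course: Acadm fell before it rose, and Cpt1a was called in the first step only.

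Bulk values were taken as FPKM, a unit corrected for the length of the transcript and the size of the library. The unit was inferred from the values, and Gapdh and Hadhb, described below, read very low in the embryonic libraries, which limits the comparison of levels between genes. Their columns summed to between 334194 and 586795, and the depth in reads is unknown. Several libraries stood apart. The row of Hand2os1 (LOC102636514) was listed at 0 in the fifth library labelled +/+ at 8 weeks, which goes against its label, while the other +/+ libraries were at 6.90 to 13.48 FPKM and the D/D libraries at 0 to 2.67. At E16.5 the row was at 0.37 to 1.40 in F/+ and 0 in F/F. At E11.5 it was 0 in every library and checks no label. Liver transcripts (7 hepatocyte markers summed) reached 235.74 FPKM in E11.5 F/+ replicate 1 and 497.73 in E11.5 F/F replicate 2. They were at 12.65 and 49.08 in E11.5 F/F replicates 1 and 3, and at 0.60 and 2.26 in F/+ replicates 2 and 3. Below, only F/+ replicate 1 and F/F replicate 2 are called libraries with liver transcripts, so leaving them out keeps that imbalance between genotypes. The 13 libraries at 8 weeks clustered into sets of 5, 6 and 2 that cut across genotype. Cell makeup also differed by stage. The 11 cardiomyocyte markers, all detected, summed to 11391 to 16158 FPKM at E11.5, 16573 to 20324 at E16.5 and 33007 to 46700 at 8 weeks. Erythroid markers (9 of 10 in the table) summed to 39241 to 136226, 146 to 8109 and 1.26 to 154, with 4 of the 9 at 0 in every library at 8 weeks. Mesenchymal markers (11) summed to 392 to 567, 1213 to 1388 and 38.5 to 159, and adipocyte markers (6) to 0 to 0.85, 8.33 to 10.8 and 23.7 to 48.6, with 4 of the 6 at 0 in every library at E11.5 and 4 at E16.5. Their part in the stage differences was not tested. In bulk tissue, fewer cells of a type and less RNA per cell cannot be told apart, and stage cannot be told apart from tissue (heart, ventricle, cardiomyocytes) nor, in the last step, from control genotype or from how the embryonic and 8-week libraries were counted (Gapdh and Hadhb, described below, differ widely between them).

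The members as a group rose with stage, in steps of very unequal size. Their summed level was 241.91 to 323.43 FPKM in the 6 E11.5 libraries, 516.05 to 583.79 in the 6 E16.5 libraries and 3140.41 to 4370.01 in the 13 libraries at 8 weeks. As a share of all FPKM this was 0.0465% to 0.0734%, then 0.152% to 0.171%, then 0.669% to 1.0%. No library of one stage overlapped the next.

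**Figure D1:**
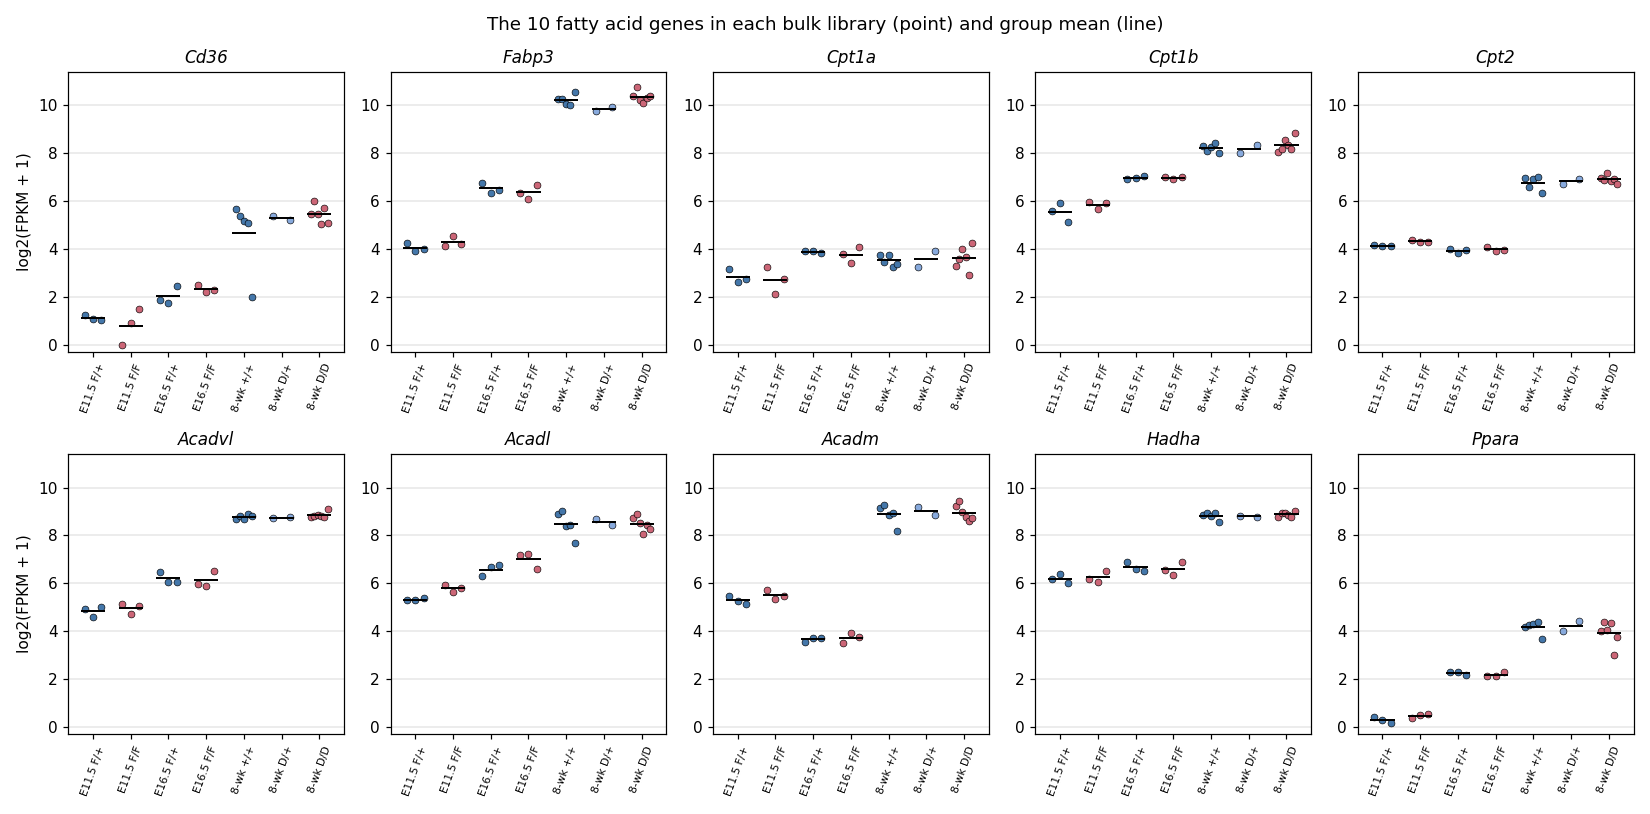
FPKM (log axis) of each of the 10 genes in each bulk library, grouped by stage and genotype. Most genes step upward from E11.5 to E16.5 to 8 weeks, whereas Acadm is lowest at E16.5 (10.35 to 13.98 FPKM) and Cpt1a stays between 3.38 and 17.92 FPKM in every library.

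From E11.5 heart to E16.5 ventricle in F/+ mice, 7 of the 10 members rose and Acadm fell (limma, adjusted p under 0.05 over 11437 genes), while Cd36 and Cpt2 did not pass. Over all genes tested, 16.0% were called higher and 27.8% lower. The members' median difference was 1.15 on the log2(FPKM + 1) scale, beside −0.14 for all genes. The libraries' scaling moves that balance: 1827 genes were higher and 3180 lower as deposited, 2413 and 2369 after median-ratio scaling, 2546 and 2312 after upper-quartile scaling, and 2606 and 2590 with a trend on GC content removed. The F/F step has its own group means but shares the fit of all 25 libraries, and so its estimate of spread. In F/F mice 7 members rose and Acadm fell, so that 8 of 10 were called, against 44.8% of all genes in either direction. Groups did not overlap for 10 of 10 members in F/+ (58.8% of all genes) and for 9 of 10 in F/F (57.6%). There 1883 genes were higher and 3241 lower as deposited, and 2377 and 2368, 2603 and 2265, and 2604 and 2596 under the same 3 alternatives. Directions of the members held under these scalings except for Cpt2, described with its values.

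From E16.5 ventricle to cardiomyocytes at 8 weeks, 9 of 10 members rose from F/+ to +/+ and none fell; Cpt1a did not pass. Over all genes 23.6% were called higher and 44.2% lower. The members' median was 2.36 on the log2 scale, beside −0.35 for all genes. As deposited 2704 genes were higher and 5057 lower, against 3878 and 3412 with median-ratio scaling, 3527 and 3809 with upper-quartile scaling, and 3611 and 3660 with the GC trend removed. From F/F at E16.5 to D/D at 8 weeks, where the allele changes too, 9 members rose and none fell (background 23.9% higher and 44.6% lower, median 2.51). Groups did not overlap for 9 of 10 members in each, beside 65.6% of all genes in controls and 60.6% in homozygous libraries. The member that overlapped was Cd36 in controls, through the +/+ library at 3.01 FPKM, and Cpt1a in homozygous libraries. In controls Cpt1a was apart because it was lower at 8 weeks. In that step 2729 genes were higher and 5104 lower as deposited, and 4008 and 3491, 3661 and 3908, and 3747 and 3750 under the alternatives. The 2 steps in control libraries share the E16.5 F/+ samples, so their values are set side by side only.

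**Figure D2:**
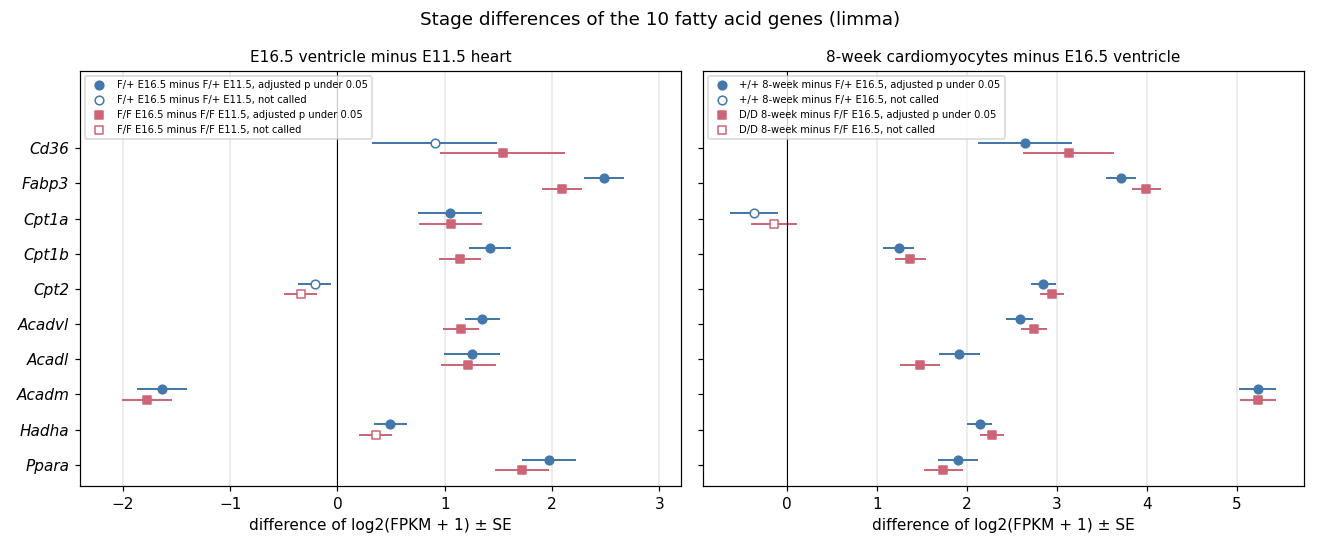
Difference in log2(FPKM + 1) with its standard error for each gene, from E11.5 to E16.5 (left) and from E16.5 to 8 weeks (right), in control and homozygous libraries; filled symbols passed an adjusted p of 0.05. Acadm lies at −1.63 and −1.78 on the left and at 5.23 and 5.24 on the right, while Cpt1a lies above 0 on the left and did not pass on the right, where its sign turns under median-ratio scaling.

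Fabp3, the cytosolic binding protein, rose at both steps. It measured 17.73, 13.84 and 14.91 FPKM in E11.5 F/+ and 16.52, 22.15 and 17.19 in F/F. At E16.5 it measured 107.56, 80.64 and 86.94 in F/+ and 79.61, 67.70 and 101.43 in F/F. At 8 weeks the +/+ libraries held 1236.90, 1247.60, 1066.91, 1019.80 and 1498.51 FPKM, the D/+ libraries 866.37 and 982.96, and the 6 D/D libraries 1085.54 to 1758.88 with a median of 1297.08. Every library of a later stage was above every library of an earlier one, and Fabp3 became the most abundant member per length in the +/+ cardiomyocytes. The step to E16.5 was 2.49 ± 0.19 (SE) in F/+ (limma adjusted p = 4.57e-10) and the step to 8 weeks 3.71 ± 0.17 (adjusted p = 9.66e-15). A processed pseudogene, Fabp3-ps1, matches 402 bases of the Fabp3 transcript at 99.3% identity, so reads can be split between them and these levels are uncertain to that extent.

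Cd36, the membrane carrier, was near the lower limit of use before birth. It measured 1.35, 1.07 and 1.06 FPKM in E11.5 F/+ and 0, 0.86 and 1.77 in F/F, then 2.62, 2.29 and 4.52 in E16.5 F/+ and 4.69, 3.59 and 3.86 in F/F. At 8 weeks the +/+ libraries held 49.36, 40.74, 35.07, 32.66 and 3.01 FPKM, the D/+ libraries 40.24 and 35.54, and the 6 D/D libraries 32.02 to 62.72. The embryonic stages did not overlap, and the value of 3.01 belongs to the +/+ library that goes against its label. The F/+ step to E16.5 was 0.90 ± 0.58 and did not pass (limma adjusted p = 0.22); with only those 2 groups in the fit the adjusted p was 0.020, and with replicate number as a block as well 0.036. The F/F step of 1.54 ± 0.58 passed narrowly (adjusted p = 0.035) and was lost with the GC trend removed (1.18, adjusted p = 0.058), with no filter (0.058) and without any 1 of 5 of its 6 libraries (adjusted p from 0.064 to 0.16). The step to 8 weeks in controls was 2.64 ± 0.52 (adjusted p = 0.00012), and 3.31 without the +/+ library at 3.01. The longest coding transcript of Cd36 has 38.4% GC, at the 0.874th percentile of genes averaging 1 FPKM or more. Both GC-poor and GC-rich transcripts shifted between the libraries at 8 weeks.

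The pair of outer-membrane carnitine palmitoyltransferases followed separate courses. Cpt1b, the muscle form, measured 47.61, 59.92 and 34.19 FPKM in E11.5 F/+, and 120.91, 124.38 and 129.98 in E16.5 F/+. The E11.5 F/F libraries held 61.34, 49.28 and 58.94, and the E16.5 F/F libraries 126.84, 121.86 and 127.69. At 8 weeks it ranged from 255.00 to 341.94 in +/+ (median 306.64) and from 261.04 to 459.03 in D/D (median 306.53). The stages did not overlap, and the steps were 1.42 ± 0.20 (limma adjusted p = 3.65e-06) and 1.24 ± 0.17 (adjusted p = 1.72e-06) in controls. Cpt1a, the liver form, measured 7.89, 5.11 and 5.72 FPKM in E11.5 F/+ and 13.99, 14.21 and 13.17 in E16.5 F/+, a rise of 1.05 ± 0.30 (adjusted p = 0.0062). In F/F it measured 8.48, 3.38 and 5.64 and then 12.65, 9.57 and 16.12; the rise of 1.05 (adjusted p = 0.0060) fell short without the E11.5 F/F library with liver transcripts (0.77, adjusted p = 0.054). At 8 weeks Cpt1a measured 12.37, 9.84, 12.51, 8.49 and 9.46 FPKM in +/+, all just below the F/+ ventricles, and 6.60 to 17.92 in D/D, which overlapped the F/F ventricles. Its step to 8 weeks was −0.37 ± 0.26 (adjusted p = 0.22) in controls, and turned to 0.077 under median-ratio scaling.

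Cpt1b made up most of the Cpt1a and Cpt1b signal at every stage. Its share of their summed FPKM was 85.7% to 93.6% at E11.5 (median 89.6%), 88.8% to 92.7% at E16.5 (median 90.3%) and 95.8% to 97.8% at 8 weeks (median 96.4%). The embryonic stages overlapped, and every library at 8 weeks lay above them. Cpt1b lies within a read-through transcript, Gm44502, which contains 1841 bases of it at 100% identity, so its reads cannot be assigned without ambiguity. Cpt2, which completes the shuttle, was not called in the first step and rose in the second. It measured 16.33 to 16.87 FPKM in the 3 E11.5 F/+ hearts, 14.96, 13.15 and 14.42 in E16.5 F/+, and 122.48, 95.38, 121.52, 129.24 and 80.60 in +/+ at 8 weeks. The first step was −0.21 ± 0.15 (limma adjusted p = 0.28), with 0.010 under upper-quartile scaling and 0.057 with the GC trend removed, and the second was 2.85 ± 0.14 (adjusted p = 3.95e-14). In F/F the first step was −0.34 (adjusted p = 0.077).

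The 3 acyl-CoA dehydrogenases diverged at E16.5. Acadvl measured 29.59, 23.37 and 31.13 FPKM in E11.5 F/+, 88.44, 66.33 and 65.08 in E16.5 F/+ and 417.01, 442.60, 417.07, 479.77 and 449.44 in +/+ at 8 weeks. Acadl measured 38.41, 38.30 and 40.20, then 77.51, 101.82 and 106.18, then 473.72, 516.28, 338.71, 344.03 and 206.46. Both rose at each step without overlap between stages: by 1.35 ± 0.17 and 2.59 ± 0.15 for Acadvl (limma adjusted p = 8.58e-07 and 6.57e-13) and by 1.25 ± 0.26 and 1.91 ± 0.23 for Acadl (adjusted p = 0.00041 and 1.79e-07). The transcript of Acadvl overlaps that of the neighbouring gene Dvl2 by 256 bases.

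Acadm, the medium chain enzyme, fell first and then rose more than any other member. It measured 43.56, 37.11 and 34.48 FPKM in E11.5 F/+ and 51.12, 39.10 and 42.90 in F/F. At E16.5 it measured 10.56, 12.12 and 12.27 in F/+ and 10.35, 13.98 and 12.39 in F/F, so that all 6 ventricles were below all 6 earlier hearts. At 8 weeks the +/+ libraries held 564.41, 624.15, 466.65, 493.32 and 292.40 FPKM. The steps were −1.63 ± 0.23 (limma adjusted p = 5.59e-06) and 5.23 ± 0.21 (adjusted p = 1.17e-15) in controls, and −1.78 and 5.24 in homozygous libraries. With the GC trend removed they were −1.26 and 5.42 in controls. The longest coding transcript of Acadm has 48.0% GC, at the 33.5th percentile of genes averaging 1 FPKM or more. The pseudogene Gm5131 matches 681 bases of Acadm at 93.5% identity, so the level of Acadm is uncertain where reads were split. How reads with several matches were counted is not given in the sources used here, and embryonic and 8-week libraries differed for a gene with many copies: Gapdh, which aligns to 181 other genes, was at 0.12 to 5.09 FPKM in all embryonic libraries and at 980.45 or more at 8 weeks. The part of such copies in the Acadm values was not tested.

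The shares of the 3 dehydrogenases show the same divergence. Acadm held 32.6% to 39.0% of their summed FPKM at E11.5, 4.72% to 6.72% at E16.5 and 30.8% to 43.0% at 8 weeks. Acadl held 34.4% to 42.8%, 43.9% to 67.4% and 21.8% to 32.6%. Acadvl held 22.6% to 29.4%, 26.2% to 50.1% and 27.7% to 47.4%. The ventricles at E16.5 did not overlap either other stage for Acadm or Acadl, while Acadvl overlapped across all stages. The E16.5 libraries also split among themselves in a way that crossed genotype, a pattern picked out after the values were seen. F/+ replicate 1 and F/F replicate 3 had the lowest Acadl of the 6 (77.51 and 95.81 FPKM) and the highest Acadvl (88.44 and 89.87), Fabp3 (107.56 and 101.43) and Hadha (117.05 and 118.24).

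**Figure D3:**
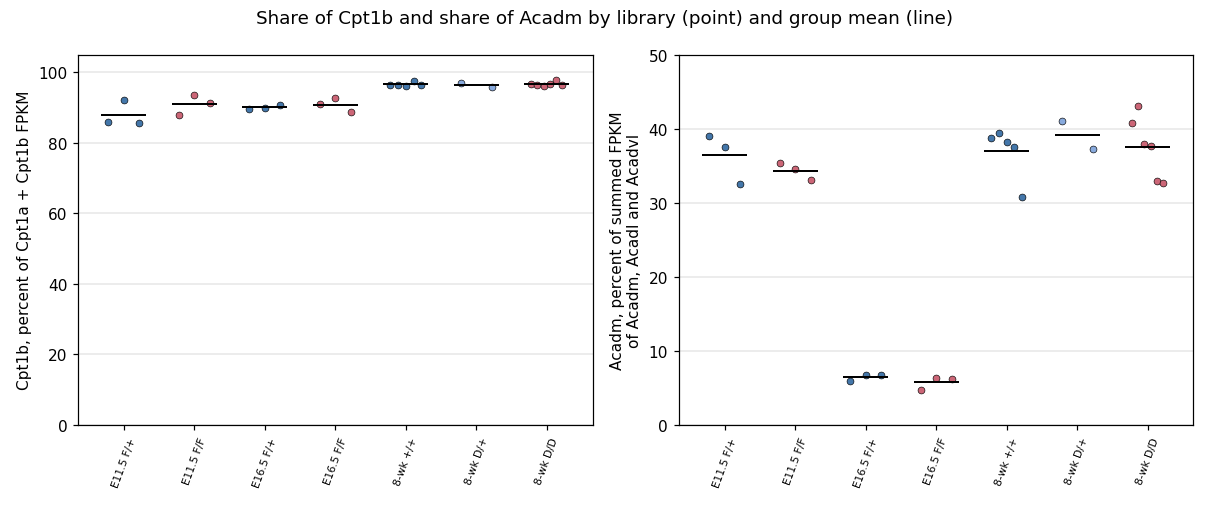
Percent of Cpt1b in the summed FPKM of Cpt1a and Cpt1b (left) and of Acadm in the summed FPKM of the 3 dehydrogenases (right); points are libraries and lines group means. Cpt1b holds 85.7% or more everywhere, and Acadm drops to 4.72% to 6.72% in the 6 E16.5 libraries.

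Hadha, the trifunctional protein's alpha subunit, was the most abundant member per length at E11.5, with 70.94, 81.54 and 63.61 FPKM in F/+. It measured 117.05, 97.15 and 91.18 in E16.5 F/+ and 456.23, 492.78, 443.84, 485.78 and 381.74 in +/+ at 8 weeks. The stages did not overlap in control libraries. The first step of 0.49 ± 0.15 (limma adjusted p = 0.013) was lost without E11.5 F/+ replicate 3 (0.41, adjusted p = 0.060) or E16.5 F/+ replicate 1 (0.39, adjusted p = 0.077), and the second was 2.14 ± 0.14 (adjusted p = 5.68e-12). In F/F the first step was 0.36 (adjusted p = 0.065), and it passed with the GC trend removed (0.70, adjusted p = 0.00040), with median-ratio scaling (0.56, adjusted p = 0.0066), with upper-quartile scaling (0.61, adjusted p = 0.0035) and without E11.5 F/F replicate 3 or E16.5 F/F replicate 2. The beta subunit, Hadhb, which forms the same complex, was far lower in these bulk values: 0 to 1.23 FPKM at E11.5, 1.02 to 2.64 at E16.5 and 5.56 to 40.09 at 8 weeks. In the single-cell counts the subunits were near each other, with 2180 UMIs of Hadha and 2275 of Hadhb in +/+ cells, and 2856 and 3426 in F/F cells. The longest coding transcript of Hadhb has 45.4% GC. What sets the bulk gap was not tested.

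Ppara, the receptor, was at 0.34, 0.22 and 0.11 FPKM in E11.5 F/+ and 0.29, 0.42 and 0.43 in F/F, the lowest of the members. It measured 3.92, 3.96 and 3.47 in E16.5 F/+ and 3.39, 3.39 and 3.86 in F/F. At 8 weeks it measured 17.21, 18.12, 18.61, 19.86 and 11.61 in +/+, and 7.02 to 19.53 in D/D. Stages did not overlap, and the steps were 1.97 ± 0.25 (limma adjusted p = 1.53e-06) and 1.90 ± 0.23 (adjusted p = 1.47e-07). Because 1 FPKM was added before taking logs, the first step understates the change of a gene this low.

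The order of levels per length changed with stage, within the limits of the unit given above. In E11.5 F/+ hearts Hadha (mean 72.0 FPKM) led, followed by Cpt1b (47.2), Acadl (39.0) and Acadm (38.4), whose neighbouring ranges overlapped, then Acadvl (28.0), Cpt2 (16.6) and Fabp3 (15.5), then Cpt1a (6.24), Cd36 (1.16) and Ppara (0.22). In E16.5 F/+ ventricles Cpt1b (125.1 FPKM) led, ahead of Hadha (101.8), Acadl (95.2), Fabp3 (91.7) and Acadvl (73.3), which overlapped in turn, and Cpt2 (14.2) and Cpt1a (13.8) overlapped above Acadm (11.7). In +/+ cardiomyocytes Fabp3 (1214 FPKM) stood apart from Acadm (488), Hadha (452), Acadvl (441), Acadl (376) and Cpt1b (298), which overlapped in turn. Cpt2 (110) followed, and Cd36 (32.2), Ppara (17.1) and Cpt1a (10.5) overlapped at the bottom. These overlaps rest on the +/+ library that goes against its label, with Cd36 at 3.01 and Ppara at 11.61 FPKM. In the other +/+ libraries Cd36 was at 32.66 or more, Ppara at 17.21 to 19.86 and Cpt1a at no more than 12.51.

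At 8 weeks Acadm and Acadl followed the library sets, which come from clustering the libraries on all genes that passed the filter. Acadm measured 564.41 to 701.13 FPKM in the set of 5 (+/+ replicates 1 and 2, D/+ replicate 1, D/D replicates 1 and 2), 385.61 to 507.05 in the set of 6 and 292.40 to 418.65 in the pair of +/+ replicate 5 and D/D replicate 6. Acadl measured 409.39 to 516.28, 268.90 to 361.36 and 206.46 to 305.54. For both genes the set of 5 lay above every other library, and each set holds controls and D/D libraries. The sets differed along GC content as a whole. Over the 25% of genes with the lowest GC content, the median log2 deviation from the mean of the 13 libraries was 0.13 to 0.30 in the set of 5, −0.12 to 0.11 in the set of 6 and −0.43 in each library of the pair. Over the 25% with the highest GC content it went the other way, at −0.33 to −0.14, −0.016 to 0.26 and 0.29 to 0.35. With the GC trend removed, the range over the 13 libraries shrank from 1.26 to 0.81 on the log2 scale for Acadm and from 1.32 to 0.80 for Acadl. It hardly moved for Acadvl (0.42 to 0.45) and Hadha (0.43 to 0.40), whose longest coding transcripts are at 53.7% and 51.3% GC. Nor did it for Cpt1b (0.85 to 0.84) and Cpt2 (0.80 to 0.78). For Cd36, the member lowest in GC, it went from 3.99 to 3.33. The range widened for Cpt1a (1.32 to 1.48), Fabp3 (1.02 to 1.10) and Ppara (1.40 to 1.49). After that removal the set of 5 was still above the rest for Acadm (9.03 to 9.32, against 8.51 to 8.998 in the others), while for Acadl it overlapped the pair.

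**Figure D4:**
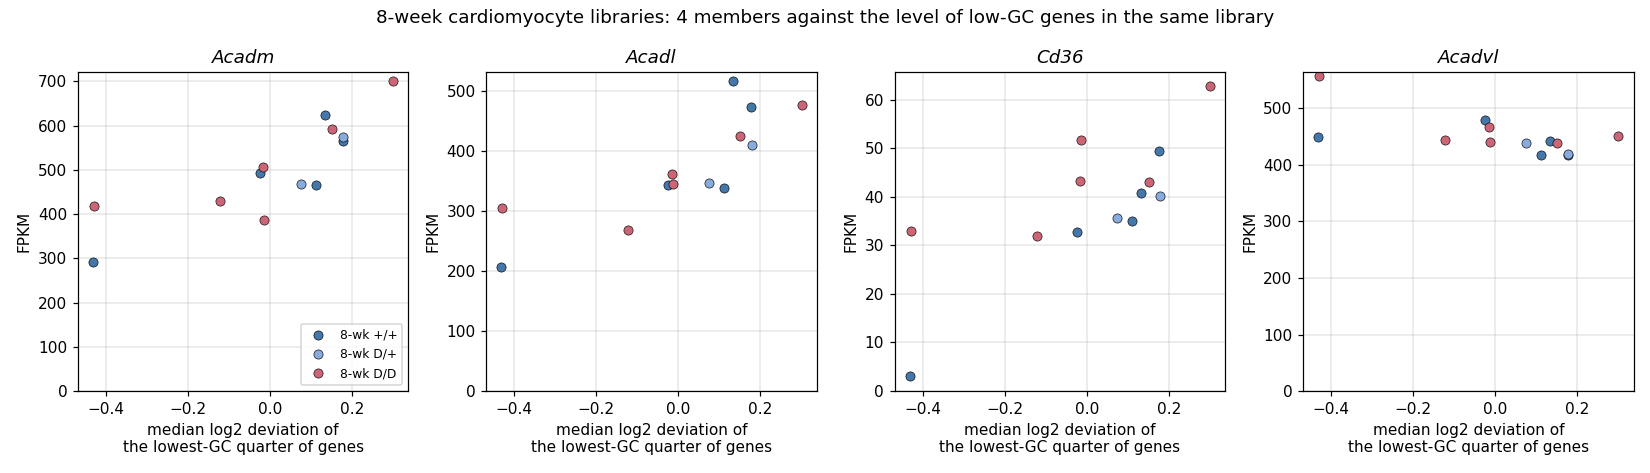
FPKM in the 13 libraries at 8 weeks against the median log2 deviation of the 25% of genes with the lowest GC content in the same library. Acadm and Acadl are highest in the 5 libraries at 0.13 to 0.30 and low in the 2 at −0.43.

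Neither deletion of Hand2os1 was accompanied by a called change in any member at any stage. With simulated data the test recovered 26% of changes of 1 on the log2 scale at E11.5, 71% at E16.5 and 79% at 8 weeks. Each simulation held 200 changed genes, which ease the adjusted threshold, whereas the real fits called 1, 1 and 0 genes. Its noise was independent and left out the library sets at 8 weeks. The shares may therefore be too high for these data. A lack of calls is weak evidence of no change, above all at E11.5. At E11.5, 9 members passed the filter (Ppara did not) and none was called by limma, against 0.00870% of 11491 genes; 1 had an unadjusted p under 0.05. Acadl measured 38.41, 38.30 and 40.20 FPKM in F/+ and 60.02, 48.43 and 54.65 in F/F, with no overlap, and its difference of 0.47 ± 0.16 had an adjusted p of 0.999 in limma (unadjusted p = 0.014). Cpt2 also did not overlap (16.33 to 16.87 against 18.28 to 19.77 FPKM; 0.18 ± 0.18), so 2 of 9 members did not overlap, against 9.23% of all genes. The 11 cardiomyocyte markers moved with these, at 11391 to 13415 FPKM in F/+ and 13772 to 16158 in F/F, and their part was not tested. The other 7 members had fitted differences from −0.32 (Cd36) to 0.28 (Cpt1b), and 7 of the 9 were fitted higher in F/F.

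At E16.5 all 10 members passed the filter and none was called by limma, against 0.00935% of 10699 genes; 0 had an unadjusted p under 0.05. None had groups that did not overlap, against 6.78%. Acadl had the largest fitted difference, 0.43 ± 0.19 (adjusted p = 1.0 in limma), with 77.51, 101.82 and 106.18 FPKM in F/+ and 146.26, 147.59 and 95.81 in F/F. The 2 high F/F libraries also held the most erythroid transcript, 8109 and 7701 FPKM over 9 markers, against 389 in the third and 146 to 381 in F/+; the part of red cells was not tested. The difference between the F effects at the 2 embryonic stages was called by limma for no member, against 0.0525% of genes, with 0 unadjusted p under 0.05, and was −0.034 ± 0.37 for Acadl.

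At 8 weeks none of the 10 members was called between D/D and the 7 control libraries (limma, against 0.00% of 10249 genes called), and no member's groups were apart, against 0.0293%; 0 had an unadjusted p under 0.05. The largest fitted differences were 0.63 ± 0.47 for Cd36, −0.25 ± 0.20 for Ppara and 0.24 ± 0.14 for Fabp3. Without the library at odds with its label and D/D replicate 6 no member was called either. The other 7 fitted differences lay between −0.025 (Acadl) and 0.15 (Cpt1b), with standard errors of 0.089 (Acadvl) to 0.20 (Cpt1a).

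Beyond the members, 66 further genes of the pathway were followed, of which 64 passed the filter in the stage comparisons. From E11.5 to E16.5 in F/+, 26 were called higher and 7 lower, beside 16.0% and 27.8% of all genes, and in F/F 24 and 7, beside 44.8% of all genes in either direction. From E16.5 to 8 weeks, 42 were higher and 8 lower in controls, beside 23.6% and 44.2% of all genes, and 44 and 9 in homozygous libraries, beside 23.9% and 44.6%. No gene of the list was called by limma in any genotype comparison; at an unadjusted p under 0.05 there were 1 of 55 at E11.5 (502 of all 11491 genes), 0 of 57 at E16.5 (281 of 10699) and 3 of 60 at 8 weeks (175 of 10249). Counts by role are a description, and differences between roles or stages were not tested. In the first step all 3 electron transfer genes rose in F/+ and in F/F. Of 9 receptors and coactivators, 6 rose in F/+ and 4 in F/F, and of 16 beta-oxidation genes 5 rose in F/+ and 6 in F/F, with 2 lower in each. Of 5 peroxisomal genes, 0 were called in F/+ and 1 was lower in F/F. In the step to 8 weeks 13 of 16 beta-oxidation genes were higher in controls and 14 in homozygous libraries, with none lower in either. In controls 6 of 7 lipid droplet genes, 4 of 7 other PPAR targets and 3 of 9 receptors and coactivators were higher, and in homozygous libraries 6, 5 and 3. Of 10 genes of uptake, binding and activation, 5 were higher and 4 lower in controls, and the same in homozygous libraries.

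The largest movers of the list in controls included genes of fatty acid uptake, binding and activation, in both directions. Lpl, which frees fatty acids from circulating triglyceride, rose from 9.15 ± 1.20 (SD, n = 3) to 55.1 ± 5.62 FPKM (n = 3), by 2.47 ± 0.23 (limma adjusted p = 1.20e-08), and to 903 ± 271 (n = 5) at 8 weeks, by 3.94 ± 0.20 (adjusted p = 9.75e-14). Fabp4, the binding protein of fat and capillary cells, rose from 0.98 ± 1.45 to 13.6 ± 5.54 and to 415 ± 163 FPKM (adjusted p = 9.68e-05 and 1.41e-08). Fabp5, a related binding protein, fell from 46.2 ± 8.61 to 5.42 ± 5.09 FPKM in the first step, and Eci2, an auxiliary enzyme for unsaturated fatty acids, from 34.9 ± 5.29 to 7.95 ± 1.18. Etfa, which takes electrons from the dehydrogenases, rose from 1.93 ± 0.99 to 13.6 ± 2.17 FPKM. Like Hadhb it read very low at E11.5, at 0.79 to 2.62 FPKM in F/+, where Etfb of the same role held 171.5 to 176.02. That gap was not tested. Ucp2, a mitochondrial carrier, fell from 335 ± 165 to 42.2 ± 5.85. Plin5, which coats lipid droplets in oxidative tissue, rose from 1.13 ± 0.35 to 49.6 ± 13.6 FPKM in the step to 8 weeks, and the activating enzyme Acsl3 fell from 11.02 ± 1.0 to 0.60 ± 0.23. Rxra, the partner of Ppara, fell from 39.9 ± 0.55 to 22.04 ± 5.34 FPKM (−0.85 ± 0.22, adjusted p = 0.0016), a call lost under median-ratio scaling (−0.38, adjusted p = 0.13). Dgat1, which makes triglyceride, fell by 0.64 (adjusted p = 0.0014), a call lost under median-ratio scaling (−0.19, adjusted p = 0.28), upper-quartile scaling (−0.31, adjusted p = 0.086) and removal of the GC trend (−0.23, adjusted p = 0.20).

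Across the 25 bulk libraries, which share stage and tissue, 8 members tracked the mean of the other 9 with Pearson's r of 0.919 or more. Acadm did so less (r = 0.82) and Cpt1a least (r = 0.42). Among 11427 other genes the closest to the members' mean were Lpl (r = 0.994), Fyco1, Mfn2, Pde4dip and Ivd (each 0.991 or more). The gene most like Acadm was Pln, the calcium pump regulator phospholamban (r = 0.995), which also dipped in the middle stage: 41.41 to 71.31 FPKM at E11.5, 13.27 to 22.67 at E16.5 and 221.58 to 788.96 at 8 weeks. The longest coding transcript of Pln has 38.6% GC. Acadvl was closest to Acaa2 (r = 0.997), the thiolase of the same pathway, Hadha to Ogdh (0.995) and Ppara to Perm1 (0.990). Cd36 was closest to Hadhb (0.967), Cpt1b to Adck3 (0.988), Cpt2 to Myot (0.992), Acadl to Rcan2 (0.982) and Cpt1a to Rab20 (0.863). Myot was at 0 to 0.6 FPKM at E11.5, 0 in every E16.5 library and 11.01 to 49.83 at 8 weeks. Its r with Cpt2 thus reflects the contrast of embryonic and 8-week libraries. Hadhb, Adck3 and Perm1 were also near 0 at E11.5, at no more than 1.23, 1.93 and 0.77 FPKM.

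The single-cell libraries place these transcripts by cell class at E11.5. They hold 2503 +/+ and 3368 F/F cells after filtering, with median depths of 13307 and 13348 UMIs, and 18 barcode sequences occurred in both libraries. Each genotype has a single library, so no test was made, and the intervals given reflect counting error alone. The row of Hand2os1, under its older name Gm28063, held 1 UMI in the +/+ and 9 in the F/F library. That goes against the F/F label, and whether these tags lie in the deleted part was not tested, so +/+ and F/F stand here for the libraries so labelled and the directions below rest on those labels. Classes were rebuilt from marker lists, and 550 cells in 5 clusters stayed unnamed. In 3 of these clusters, 7 to 11 of 11 cardiomyocyte markers were raised, and the 11 markers summed to 39038 CPM in +/+ and 47897 in F/F unnamed cells.

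Fabp3 separated cardiomyocyte-like cells from the other named classes most clearly. In 1147 cardiomyocyte-like cells it reached 399 CPM (UMIs scaled to the total of the class), with 29.6 in 970 mesenchymal-like, 11.9 in 397 epicardial-like, 7.04 in 123 immune-like, 7.01 in 458 endothelial and endocardial-like and 6.58 in 2195 erythroid-like cells. At least 1 Fabp3 UMI was seen in 94.9% of cardiomyocyte-like cells (median depth 15260 UMIs) and in 8.70% of erythroid-like cells (median 11352), a class that should lack the gene. An unnamed cluster of 297 cells led by Mybpc1, Sln, Sema3c, Rspo3 and Bmp4, in which 11 of 11 cardiomyocyte markers were raised, held more than the named class, with 630.5 CPM of Fabp3, 220 of Acadl and 192 of Acadm.

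Cd36 was also highest in cardiomyocyte-like cells among named classes, at 16.8 CPM (95% Poisson interval 14.9 to 18.8), with 6.04 (4.27 to 8.29) in epicardial-like cells. Endothelial and endocardial-like cells held 2.28 (1.21 to 3.90), and erythroid-like cells 0.12 (0.034 to 0.32). An unnamed cluster of 106 cells led by Shox2 and Vsnl1, with 10 of 11 cardiomyocyte markers raised, held 36.2 CPM. Cells with a Cd36 UMI were 19.8% of cardiomyocyte-like and 0.18% of erythroid-like cells. The oxidation enzymes were spread more widely. Acadl measured 125 CPM in cardiomyocyte-like cells, 87.7 in endothelial and endocardial-like, 76.0 in mesenchymal-like, 47.5 in epicardial-like and 15.5 in erythroid-like cells. Acadm measured 116 CPM in cardiomyocyte-like, 47.8 in epicardial-like, 32.3 in endothelial and endocardial-like and 11.1 in erythroid-like cells. Hadha measured 111, 61.0 and 22.1 CPM in cardiomyocyte-like, endothelial and endocardial-like and erythroid-like cells, and Acadvl 41.6, 23.9 and 25.4. Cpt1a over both libraries was at 5.12 CPM (4.12 to 6.29) in cardiomyocyte-like cells, below the 11.6 (8.95 to 14.7) of endothelial and endocardial-like cells. The gap lay mainly in the F/F library (3.50 and 13.3 CPM), since in +/+ the values were 7.51 (5.64 to 9.80) and 9.09 (5.63 to 13.9), with overlapping intervals. The 31 megakaryocyte-like cells had the highest Cpt2, at 57.7 CPM, against 23.9 in cardiomyocyte-like cells. Cpt1b gave 9 UMIs over all cells although bulk E11.5 hearts held 34.19 to 61.34 FPKM; the gap was not tested, and its single-cell level is not usable. Ppara was at 0.23 CPM in cardiomyocyte-like cells, from 3 UMIs in +/+ and 1 in F/F, too few to place it by class.

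**Figure D5:**
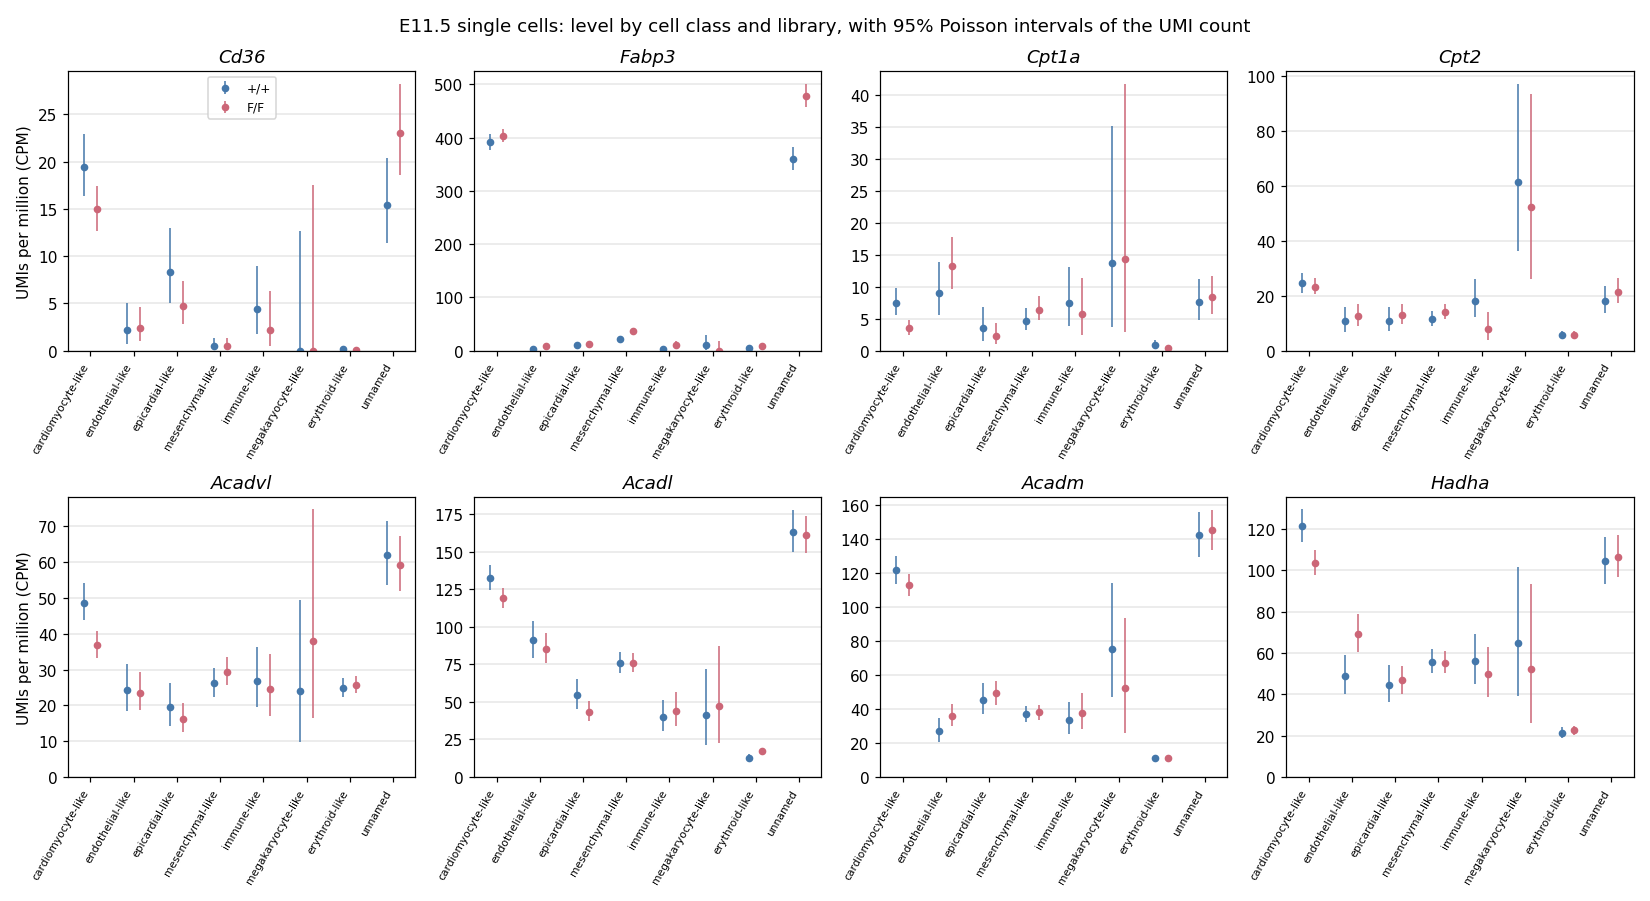
Level of 8 members in CPM by cell class in the +/+ and F/F single-cell libraries, with 95% Poisson intervals of the count. Fabp3 is near 400 in cardiomyocyte-like cells and at or below 36.3 in the other named classes, whereas Acadl and Hadha are spread over all classes.

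Between the libraries labelled +/+ and F/F, Fabp3 in cardiomyocyte-like cells was level, at 392 CPM in +/+ and 403 in F/F (log2 ratio 0.04, interval −0.03 to 0.11). Acadl was 133 and 119 CPM (−0.15, −0.28 to −0.03), and the log2 ratios of Hadha and Acadvl were −0.23 (−0.36 to −0.10) and −0.40 (−0.62 to −0.19). Acadm gave −0.11 (−0.23 to 0.02), and Cpt2 −0.08 (−0.36 to 0.21). Of the 7 members with at least 100 UMIs in each library, none passed 0.5 in either direction, against 0.271% of 6266 genes higher and 2.36% lower. Cpt1a, with fewer UMIs, was at 54 UMIs in +/+ and 37 in F/F (−1.10, −1.75 to −0.47). The class joins a cluster led by Nppa, Cited1 and Gja5 (241 +/+ and 295 F/F cells) and one led by Ppp1r17, Myoz2 and Myl2 (202 and 409 cells). Cd36 went in opposite directions in them: 11.3 to 15.6 CPM in the first and 29.6 to 14.5 in the second, for −0.38 (−0.72 to −0.04) over the class. In the 550 unnamed cells, which include clusters with raised cardiomyocyte markers, Fabp3 was 360 CPM in +/+ and 478 in F/F (0.41, 0.30 to 0.52). Cd36 was also higher there (0.58, 0.06 to 1.11). Acadl (−0.02, −0.19 to 0.15), Hadha (0.03, −0.18 to 0.24), Acadvl (−0.07, −0.34 to 0.21) and Cpt1a (0.14, −0.66 to 0.96) had intervals spanning 0. The summed cardiomyocyte markers of these cells also differed, at 39038 and 47897 CPM. The lowering of Acadl in F/F covers a single cell class, set against +/+. Its fitted bulk rise at E11.5 covers whole hearts, set against F/+, so the values are not like for like. Over all single cells Acadl was level (log2 ratio −0.02, −0.10 to 0.05). The bulk difference did not pass its test and the single-cell one has none.

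Fabp3 was higher in the library labelled F/F in 4 other named classes. It measured 21.7 CPM in +/+ and 36.3 in F/F mesenchymal-like cells (0.74, 0.44 to 1.05), 4.70 and 8.01 in erythroid-like cells (0.77, 0.34 to 1.21) and 3.03 and 9.73 in endothelial and endocardial-like cells (1.68, 0.48 to 3.10). Immune-like cells held 3.75 and 10.8 (1.53, 0.085 to 3.19; 6 and 15 UMIs). In epicardial-like cells the interval spanned 0 (0.37, −0.36 to 1.15), and megakaryocyte-like cells held 3 UMIs in +/+ and 0 in F/F. The 11 cardiomyocyte markers moved with it: their summed CPM was 695 and 1149 in mesenchymal-like, 366 and 800 in erythroid-like, 444 and 933 in endothelial and endocardial-like and 352 and 779 in immune-like cells, but 41237 and 41474 in cardiomyocyte-like cells. The part of free cardiomyocyte RNA was not tested. Hadha was higher in F/F endothelial and endocardial-like cells by 0.50 (0.17 to 0.84), and Acadl in F/F erythroid-like cells by 0.43 (0.16 to 0.70). Cpt2 in immune-like cells was lower in F/F (−1.19, −2.34 to −0.14; 29 UMIs in +/+ and 11 in F/F).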

How the data were processed

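Poly(A) RNA was measured in 25 bulk libraries and 2 droplet single-cell libraries. Bulk values were taken as FPKM, a unit that no header of the deposited table names and that was inferred from the values, so read depth is unknown. Per the submitters' processing notes, bulk processing used CASAVA and TopHat2 2.0.11 with mm9, and single-cell processing Cell Ranger with mm10. Single-cell values were deposited as UMI counts (38302758 in +/+ and 51432290 in F/F). The counter and annotation are not given in the sources used here.

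Of 24525 bulk lines, 769 repeated 270 symbols with identical values and were merged, and 1 gene with a blank value was left out. limma 3.58.1 (R 4.3.3) with an intensity trend was fitted to log2(FPKM + 1) after dropping genes averaging under 1 FPKM, with Benjamini-Hochberg adjusted p under 0.05 as the threshold. Each genotype comparison had its own fit, and stage comparisons shared a fit of all 25 libraries in 7 groups. Groups and replicates followed the labels. The script was tested on simulated data, and the shares of changes recovered are given with the genotype comparisons.

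Barcodes with at least 500 genes were kept; scrublet's own threshold marked 6 of 6019 (0.0997%) as doublets, too few to rely on, so the 148 highest scores were removed (0.8% per 1000 barcodes). Clustering (scanpy 1.11.5, Python 3.11.15) used 2000 variable genes, 30 principal components, 15 neighbours and a Leiden resolution of 1.0, and a cluster took a class name only where no fewer than 3 markers, making up 2 in 3 or more of its list, were higher there than in the other cells by 1 or more on the log2 scale, and where no other list had more markers among the cluster's top 10 genes than its own. The second condition left 2 clusters with 10 and 11 of 11 cardiomyocyte markers unnamed. Poisson intervals are exact and at 95%, and those of ratios are conditional on the total (scipy 1.17.1). Transcript GC is that of the longest transcript of a gene, protein-coding where the gene has such a transcript. It was found for 22855 of 24025 genes (95.1%) and all 10 members. Copies were searched by alignment of transcripts.

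The members, gene lists and tests were chosen with earlier results of these data known. The rule for named genes was the 10 members everywhere and, from the 66 further pathway genes, the 3 largest called rises and falls of each control stage step with a mean of at least 5 FPKM in a group and no overlap. Alternatives were a pseudocount of 0.1, no filter, 2 other scalings, a replicate block, other sample sets, leaving out each library and other single-cell settings. Added after seeing the data were removal of a GC trend (a lowess of each library's log2 deviations on transcript GC), a term for 3 library sets at 8 weeks, and leaving out the libraries that stand apart or hold liver transcripts.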

Additional observations from a re-analysis of the deposited data

Results flagged for a closer look

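Within groups of 4 to 10 libraries, 30 sets of values were examined for a single library far from the others, and 4 stood out, where chance alone flags about 1 in 20. Acadvl reached 557.48 FPKM in D/D replicate 6 at 8 weeks, against 438.26 to 466.67 in the other D/D libraries; the gap was 0.762 of the group's range (critical value 0.625). That library belongs to the pair with the lowest values of GC-poor transcripts. The share of Cpt1b in the summed FPKM of Cpt1a and Cpt1b was 97.577% in +/+ replicate 4 (gap 0.728, critical value 0.71) and 97.772% in D/D replicate 5 (gap 0.641, critical value 0.625), the libraries with the lowest Cpt1a of their groups, 8.49 and 6.60 FPKM. The share of Acadm among the 3 dehydrogenases was 30.834% in +/+ replicate 5 (gap 0.77, critical value 0.71), the library whose Hand2os1 value goes against its label.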

How the results depend on the processing

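Of 661 fitted differences of members and named pathway genes under alternatives other than leaving out a library, 632 kept direction and call, and of 736 with a library left out, 691 did; called stage differences of members that were lost or gained are given with the genes. The scalings, GC trend, library sets and libraries with liver transcripts were tried as described; the GC trend, the 3 sets and both left-out sets were chosen after seeing the data. The cause of each change below was not tested.

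Counts of called genes moved at E11.5 from 1 to 2 (replicate block) and 24 (all 25 libraries in a single fit), at E16.5 from 1 to 2 (pseudocount 0.1), and for the difference of the F effects from 6 to 1 (pseudocount 0.1), 38 (no filter), 2 (median-ratio and also upper-quartile scaling, 2) and 3 (GC trend removed). Leaving out a library gave 1 to 2, 0 to 2 and 1 to 13. The replicate block called 2, 1 and 0 genes at E11.5, E16.5 and 8 weeks and no member; nothing in the labels pairs the numbers, and deviations of same-numbered libraries correlated at −0.036, −0.017 and 0.082 (E11.5), −0.081, 0.042 and −0.435 (E16.5) and 0.527, 0.418, −0.039, −0.107 and 0.213 (8 weeks).

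Differences between genotypes near 0 changed sign. Cpt1a turned to 0.31 at E11.5 without the libraries with liver transcripts, and at 8 weeks to −0.042 (replicate block) and −0.072 (without the libraries that stand apart), where Acadm turned to −0.048. Acadl at 8 weeks turned to 0.020 (GC trend removed), 0.11 (replicate block) and 0.029 (term for 3 sets). Cpt1b at E16.5 turned to −0.0055 (median-ratio) and −0.0092 (upper-quartile), and Cpt1a's difference of F effects to −0.0064 (median-ratio). Among stage steps, Cpt2 from E11.5 to E16.5 in F/+ turned to 0.010 (upper-quartile) and 0.057 (GC trend removed). Cpt1a from E16.5 to 8 weeks turned to 0.077 (median-ratio) in controls, and to 0.31 (median-ratio), 0.20 (upper-quartile) and 0.035 (GC trend removed) in homozygous libraries.

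Ranges over left-out libraries that crossed 0 were, at E11.5, −0.37 to 0.074 for Cd36, −0.41 to 0.15 for Cpt1a, −0.0027 to 0.24 for Acadvl and −0.063 to 0.16 for Hadha. At E16.5 they were −0.30 to 0.048 for Cpt1a, −0.019 to 0.032 for Cpt1b, −0.034 to 0.17 for Acadm, −0.27 to 0.061 for Acadvl and −0.22 to 0.058 for Hadha. At 8 weeks they were −0.048 to 0.22 for Cpt1a, −0.096 to 0.098 for Acadm and −0.16 to 0.059 for Acadl. For Cpt1a from F/F to D/D the range was −0.33 to 0.023, and for the difference of F effects −0.28 to 0.28 (Cpt1a) and −0.17 to 0.17 (Acadl).

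Without haemoglobin and mitochondrial genes in the total, single-cell levels rose in cardiomyocyte-like cells to 433.5 CPM (Fabp3), 126.6 (Acadm), 135.7 (Acadl), 45.2 (Acadvl) and 120.5 (Hadha), and over all cells to 8.09 (Cd36), 172.5 (Fabp3), 5.66 (Cpt1a), 18.1 (Cpt2), 72.7 (Acadm), 92.8 (Acadl), 42.8 (Acadvl) and 79.4 (Hadha); with at least 1000 genes per barcode Fabp3 over all cells was 129.5.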

Other observations

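Of the PPAR targets outside oxidation, Pdk4, Ucp3 and Angptl4 were more spread in the D/D libraries at 8 weeks than in controls. The spread came mainly from D/D replicates 3 and 6, and these genes were singled out after their values were seen. Genes of other roles also peaked in D/D replicate 6. Among them were Pnpla2 (1367 FPKM, against 785 in the next library) and Plin5 (172, against 73.45). Pdk4, which restrains glucose oxidation, measured 24.59 to 177.12 FPKM in the 7 control libraries and 47.19, 58.28, 384.87, 83.08, 97.32 and 824.18 in D/D. Ucp3, a mitochondrial carrier of muscle, measured 5.91 to 29.70 in controls, and 62.59 and 103.07 in D/D replicates 3 and 6. Angptl4, a secreted inhibitor of Lpl, was at 14.10 and 32.67 in the same 2 libraries and at most 7.01 in the other 11. Among the members Cpt1a, Cpt1b, Acadvl and Hadha were also highest in D/D replicate 6 (17.92, 459.03, 557.48 and 515.66 FPKM), whereas Acadm and Acadl were not. None of these genes was called between D/D and controls; the difference was 0.72 ± 0.64 (SE) for Pdk4 and 1.16 ± 0.59 for Angptl4 on the log2(FPKM + 1) scale (limma adjusted p = 0.9999 for each).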
